A study of Drosophila melanogaster with 3 samples.

Results

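Aminoacyl-tRNA synthetase genes were examined for promoter binding of CG8159, a Drosophila zinc finger protein, in a chromatin immunoprecipitation sequencing (ChIP-seq) series. The genes were taken by symbol from the Ensembl annotation of the dm6 genome, as protein-coding genes named by 3 or 6 letters of amino acid abbreviation followed by RS, with or without the ending -m. That rule gave 33 genes among 13945 protein-coding genes on 6 chromosome arms. Of these, 18 carry no ending and are called cytosolic here, and 15 carry the ending -m and are called mitochondrial. The names alone set the classes: a gene without the ending may also serve mitochondria. The alpha and beta subunits of the cytosolic phenylalanine enzyme have symbols of another form and were counted with related genes.

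The samples were pools of male and female whole pupae aged 24 hours, from 1 transgenic fly line in which CG8159 is joined at its C terminus to GFP. There were 3 biological replicates in 1 group, with no untagged or second condition among them, so the comparisons are between genes and not between treatments. Precipitation used an antibody to GFP, per the sample description, although the antibody label names CG8159. Whole animals were used, so binding in few cells and weak binding in many cannot be told apart. All replicates share that line, and their spread covers separate biosamples of it.

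Aminoacyl-tRNA synthetases join each amino acid to its tRNA, the step that sets the genetic code. Cytosol and mitochondria each translate, and most animals use separate nuclear genes for many of the mitochondrial enzymes, while some genes supply both compartments. In animals several cytosolic synthetases sit together in a complex held by the AIMP scaffold proteins, and the enzymes for glutamate and proline are fused in 1 polypeptide, encoded in the fly by GluProRS.

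The stretches of reference sequence (dm6) under 5 of the sites show what the protein was found on. They are the 3 intergenic sites of highest signal in the irreproducible discovery rate (IDR) list, and the mitochondrial sites of highest and lowest A or T share. Each is given on the strand of the synthetase gene, from 50 bases before to 50 after the summit, the base of highest signal, which is base 51. Capitals mark matches to TATAAA or to a run of 8 T on either strand. IleRS lies at chr3L:22288428-22288528 (plus strand), GluProRS at chr3R:23958477-23958577 (minus), ThrRS at chr2L:12103502-12103602 (plus), ProRS-m at chr3L:2651931-2652031 (minus) and ArgRS-m at chr3R:7886936-7887036 (plus).
IleRS: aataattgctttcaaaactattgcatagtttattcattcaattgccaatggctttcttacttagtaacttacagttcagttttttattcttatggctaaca
GluProRS: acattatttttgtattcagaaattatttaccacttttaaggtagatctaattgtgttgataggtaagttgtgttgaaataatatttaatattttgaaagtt
ThrRS: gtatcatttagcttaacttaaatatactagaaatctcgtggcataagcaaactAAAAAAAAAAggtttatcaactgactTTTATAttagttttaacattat
ProRS-m: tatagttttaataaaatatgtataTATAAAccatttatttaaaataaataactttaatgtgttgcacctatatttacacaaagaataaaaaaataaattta
ArgRS-m: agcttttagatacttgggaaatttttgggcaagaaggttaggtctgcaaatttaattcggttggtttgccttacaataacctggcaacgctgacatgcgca

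All of these windows but that of ArgRS-m had an A or T share above the median of all IDR summits. Over the 11 synthetase genes with an IDR site the A or T share of the summit window ran from 58.4% at ArgRS-m to 86.1% at ProRS-m, with a median of 76.2%. The median was 70.3% over all 10239 IDR summits and 68.3% over the 2904 at protein-coding promoters. IleRS had 72.3%, GluProRS 78.2% and ThrRS 76.2%.

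Binding was found at the promoters of 11 of the 33 synthetase genes, and at 8 of 18 cytosolic against 3 of 15 mitochondrial ones. A gene is called occupied where a summit lay within 500 bp of any of its annotated start sites. In the IDR list 22.9% of all protein-coding genes were occupied. At the 11 occupied synthetase genes the strongest peak had the same signal and rank in the IDR list and in the pooled list, made from all 3 replicates. These 2 lists are thus not separate support, and how well a peak repeats is read from the replicate lists. Synthetase genes were occupied in 33.3% of cases (95% Wilson interval 19.8 to 50.4). Cytosolic genes stood at 44.4% (24.6 to 66.3) and mitochondrial genes at 20.0% (7.05 to 45.2), and the intervals, which cover counting error only, overlap. No test between the classes was made, since the genes were chosen with earlier results of these data known.

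The order of the classes was the same in every list. In the strongest 10239 peaks of each replicate, cytosolic genes were occupied in 53.7% ± 3.21 of cases (SD, n = 3) and mitochondrial genes in 20.0%, with no spread between replicates, beside 23.7% ± 1.03 of all protein-coding genes (24.8%, 23.7% and 22.7% in replicates 1, 2 and 3). The mitochondrial share was 33.7 ± 3.21 percentage points below the cytosolic one. With all 30000 peaks of each replicate the cytosolic share was 61.1% in every replicate, beside 39.1% ± 1.96 of all genes (40.7%, 39.7% and 36.9%). The mitochondrial share was 28.9% ± 3.85. The genes behind the 61.1% were not all the same, as ArgRS had summits in replicates 1 and 3 and HisRS in replicate 2. No q-value cutoff was applied to these lists, and the LysRS summit of replicate 3 had a −log10 q-value of 0.690. The pooled list, also of 30000 peaks, gave 10 cytosolic and 4 mitochondrial genes, against 37.1% of all protein-coding genes. Mitochondrial ribosomal protein genes are another set of nuclear genes for mitochondrial translation. In the IDR list they were occupied in 26 of 73 cases (35.6%), beside 22.9% of all protein-coding genes.

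**Figure D1:**
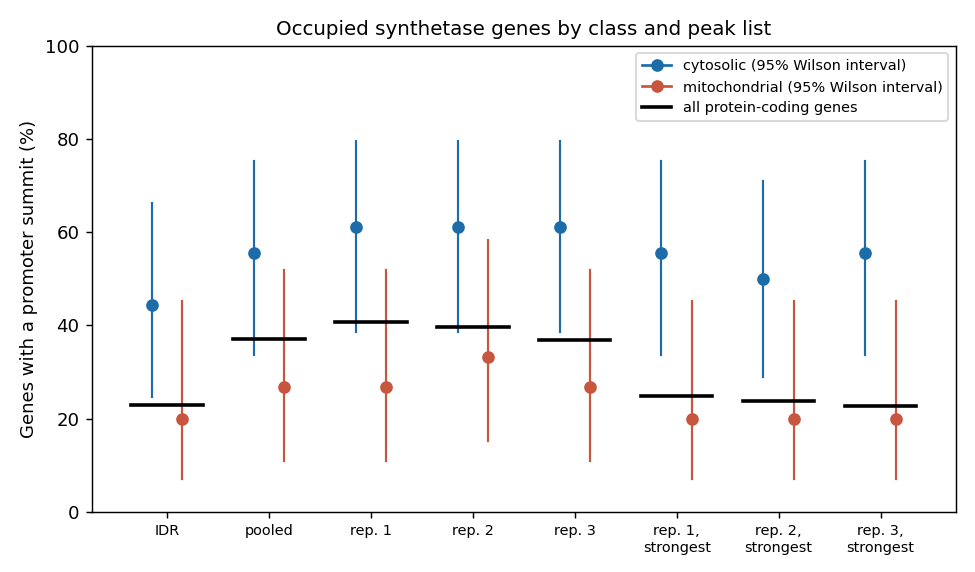
Percentage of cytosolic (blue) and mitochondrial (red) synthetase genes with a promoter summit in each peak list, with 95% Wilson intervals, and of all protein-coding genes (black bars); the last 3 positions use the strongest 10239 peaks of each replicate. The cytosolic share runs from 44.4% in the IDR list to 61.1% in the replicate lists, and the mitochondrial share from 20.0% to 33.3%.

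The cytosolic gene with the strongest site was IleRS, for isoleucyl-tRNA synthetase (chr3L:22288268-22288631). Its signal, the peak caller's own value whose scale differs between lists, was 2421 in the IDR list, where it ranked 789 of 10239. In replicates 1, 2 and 3 the signals were 989, 630 and 793, with ranks of 798, 933 and 707 among 30000. The summit lay 187 bp upstream of the start site, and the replicate summits had an SD of 3.51 bp, the tightest among the 11 genes.

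GluProRS (chr3R:23958384-23958684), the fused enzyme for glutamate and proline, had an IDR signal of 1661. Its replicate signals were 616, 448 and 569, at ranks 1615, 1538 and 1222. The summit lay 136 bp upstream. A second and much weaker IDR summit, of signal 255 at rank 9925, lay 178 bp upstream of another annotated start site of the gene.

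SerRS (chr2L:3037249-3037547), for seryl-tRNA synthetase, had an IDR signal of 1650, close to that of GluProRS. The replicates gave 669, 423 and 551, at ranks 1457, 1665 and 1269. Its summit was 11 bp downstream of the start site, in the 5′ untranslated region, and it was the single occupied synthetase gene with a downstream summit.

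ThrRS (chr2L:12103385-12103692), for threonyl-tRNA synthetase, followed with 1306. The replicate signals were 511, 343 and 446, at ranks 2047, 2119 and 1675, and the summit lay 199 bp upstream. These 4 cytosolic genes held the first 4 places among the 11 in the IDR list and in each replicate, with GluProRS and SerRS changing places in replicate 1.

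The other cytosolic sites were weaker. MetRS, for the methionine enzyme (chr2R:18850554-18850969), had an IDR signal of 636 and replicate signals of 318, 180 and 143. AsnRS, for asparagine (chr2L:19131890-19132305), had 538 in the IDR list and 264, 117 and 133 in the replicates. MetRS was the median of the 11 genes, and the median of all IDR promoter summits was 558.

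GlyRS, for glycine (chr3L:15094713-15095128), had an IDR signal of 497, with 222, 102 and 170 in the replicates, and it had the farthest summit, 221 bp upstream. AlaRS, for alanine (chr2L:8381643-8382058), had 407, with 183, 115 and 117. Its summit, 87 bp upstream, fell in the annotated 3′ untranslated region of the neighbouring gene CG13392. The 8 cytosolic sites had a median signal of 971.

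Of the 3 mitochondrial genes with a site, ProRS-m, the prolyl enzyme of mitochondria (chr3L:2651862-2652025), had the highest IDR signal, 816 at rank 3264. The replicate signals were 316, 237 and 276. ArgRS-m, for arginine (chr3R:7886778-7887193), had an IDR signal of 317 and replicate signals of 130, 111 and 97.9. CysRS-m, for cysteine (chr2R:14161175-14161590), had 307, and 128, 110 and 88.8 in the replicates. ArgRS-m and CysRS-m were the weakest of the 11, and the mitochondrial median was 317. The strongest peaks of all 3 replicates overlapped the IDR peak at all 11 genes.

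**Figure D2:**
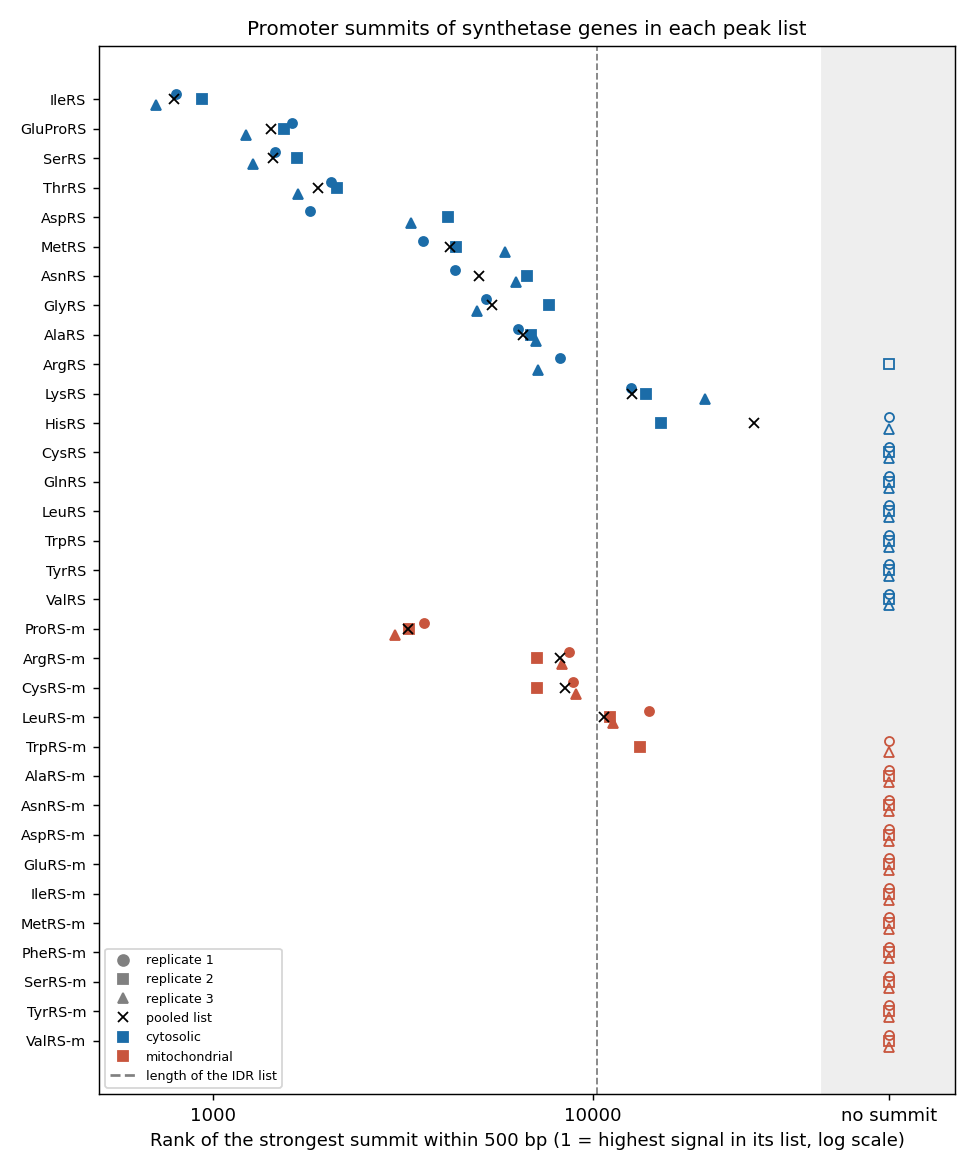
Rank of the strongest summit within 500 bp of a start site, on a log axis, for each of the 33 synthetase genes in replicates 1, 2 and 3 (filled symbols, blue for cytosolic and red for mitochondrial genes) and in the pooled list (crosses); open symbols mark replicates without a summit, and the dashed line marks 10239, the length of the IDR list. Among the 11 genes with an IDR site, IleRS, GluProRS, SerRS and ThrRS lie farthest left. AspRS, without an IDR site, has rank 1801 in replicate 1, ahead of ThrRS at 2047. Of the 33 genes, 6 cytosolic and 10 mitochondrial ones have no summit in any replicate.

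Most sites lay upstream of the gene, inside the span between its start site and that of a neighbour. Of the 11 IDR summits 10 were upstream, with a median position of -136 bp and a range of -221 to 11 bp. Over all IDR promoter summits the median was -127 bp and 76.4% were upstream. The position repeated to within a few bases at IleRS, MetRS (SD 4.73 bp, n = 3), AsnRS (5.20), ThrRS (6.08) and GluProRS (7.21). It varied most at the weakest site, CysRS-m, with an SD of 70.1 bp, where the strongest summit was 97 and 122 bp upstream in replicates 1 and 2 and 10 bp downstream in replicate 3. GlyRS (43.1 bp) and ArgRS-m (37.4 bp) came next.

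In 10 of the 11 cases the summit was also within 500 bp of a start site of another protein-coding gene, AlaRS being the exception. Those neighbours are transcribed from the opposite strand. They were Hem for IleRS, AP-1sigma (a clathrin adaptor subunit) for GluProRS, CG17260 for SerRS, Patsas for ThrRS, CG15084 for MetRS, DCTN6-p27 (a dynactin subunit) for AsnRS, and Plp and sstn for GlyRS. For the mitochondrial genes they were Snup and CG42304 at ProRS-m, CG17816 at ArgRS-m and O-fut1, a protein fucosyltransferase gene, at CysRS-m. The synthetase start site was the nearest protein-coding start site at 6 of the 11: AlaRS, ArgRS-m, AsnRS, IleRS, SerRS and ThrRS. At GluProRS the AP-1sigma start site was 124 bp away and the synthetase start site 136 bp. At CysRS-m the O-fut1 start site was 47 bp away, against 121 bp. These data do not say which gene of a pair a site belongs to. With each summit counted for the nearest gene only, 7 synthetase genes were occupied, 6 cytosolic and 1 mitochondrial, beside 18.0% of all protein-coding genes. GluProRS was among them only through its second summit, of signal 255 at rank 9925.

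**Figure D3:**
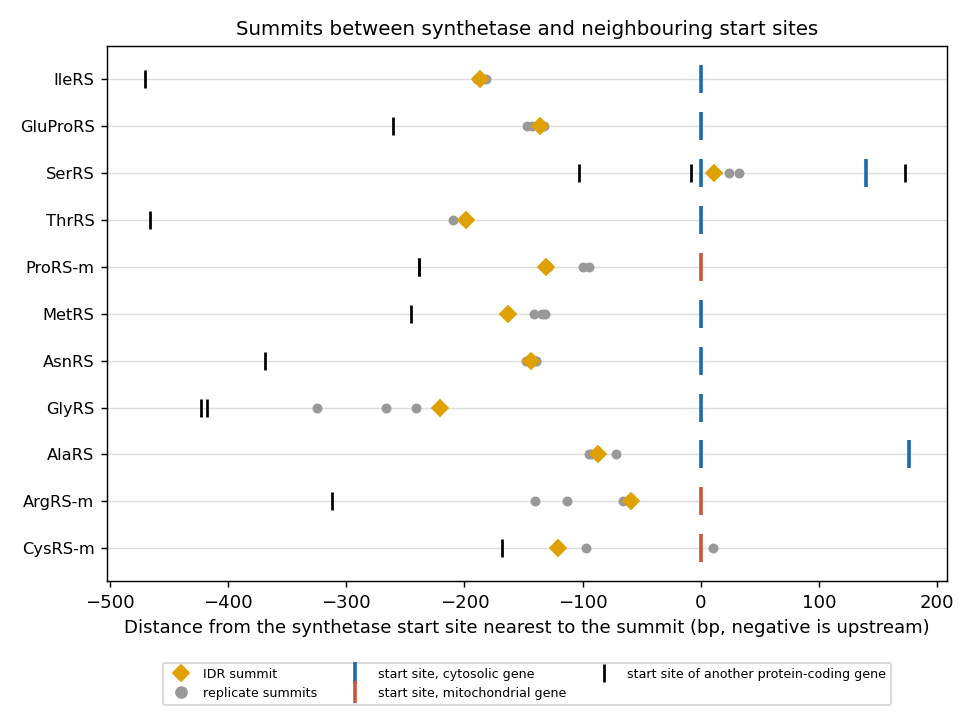
Position of the IDR summit (diamond) and of the strongest summit of each replicate (grey points) at the 11 occupied synthetase genes, in bp from the synthetase start site nearest to the IDR summit, with start sites of the synthetase gene (long coloured ticks) and of other protein-coding genes (short black ticks). Genes are ordered by IDR signal; 10 of the 11 diamonds lie left of 0, between -221 and -59 bp, and SerRS lies at 11 bp.

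Occupied synthetase genes mostly had a divergent partner, a protein-coding gene on the opposite strand with a start site within 500 bp upstream. Such a partner was annotated for 21 of the 33 genes, 14 cytosolic and 7 mitochondrial, and for 3815 of all 13945 protein-coding genes. Of the 21, 10 were occupied (47.6%), beside 37.1% of all protein-coding genes with a partner. Of the 12 without one, AlaRS alone was occupied (8.33%), beside 17.5% of all such genes. None of the 8 mitochondrial genes without a partner had a site, against 1 of 4 cytosolic ones. With a partner, 7 of 14 cytosolic and 3 of 7 mitochondrial genes were occupied. Those shares lay closer together than the 8 of 18 and 3 of 15 over all genes of the classes. Whether partners account for the difference between the classes was not tested.

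Among genes with a partner the distance between the paired start sites also differed, a comparison chosen after the values were seen. It had a median of 286 bp at the 10 occupied genes and 115 bp at the 11 others. At 1 to 150 bp, 1 of 8 synthetase genes was occupied, beside 27.8% of all protein-coding genes at that spacing. The exception was SerRS, whose closest opposite start site was 8 bp away. At 151 to 300 bp the count was 4 of 7, beside 40.9%, and at 301 to 500 bp 5 of 6, beside 42.3%. ArgRS, at 331 bp, was the widest pair without an IDR site. The counts are small, and no test was made.

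**Figure D4:**
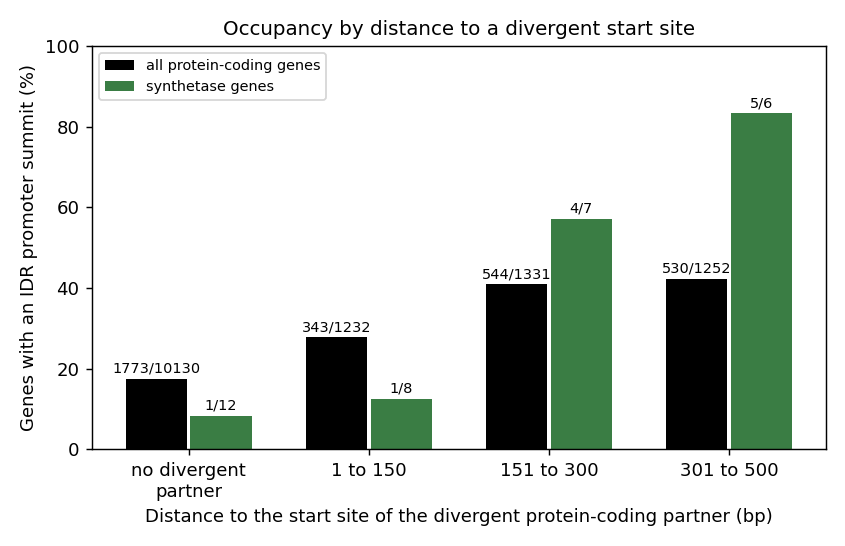
Percentage of genes with an IDR promoter summit by the distance to the start site of a divergent protein-coding partner, for all protein-coding genes (black) and the 33 synthetase genes (green), with the counts above each bar. Synthetase genes run from 1 of 12 without a partner to 5 of 6 at 301 to 500 bp.

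Amino acids with a gene for each compartment were set side by side. There were 14, with GluProRS counted for both glutamate and proline. For alanine, asparagine, glutamate, isoleucine, methionine and serine the cytosolic gene was occupied and the mitochondrial one was not. For arginine and cysteine it was the reverse. Proline had both, through GluProRS and ProRS-m. For aspartate, leucine, tryptophan, tyrosine and valine neither had an IDR site. Of the 5 amino acids with a cytosolic gene only, glycine and threonine had an occupied gene, while glutamine, histidine and lysine had none. PheRS-m, the mitochondrial phenylalanine gene, was not occupied.

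Some genes without an IDR site had summits in other lists. AspRS, for aspartyl-tRNA synthetase, had a summit within 500 bp of a start site in each replicate, at a signal of 565 and rank 1801 in replicate 1, 189 and 4150 in replicate 2, and 252 and 3317 in replicate 3. AsnRS, GlyRS and AlaRS, which have IDR sites, ranked lower in all 3 replicates, yet no pooled or IDR peak lay at these summits. The start site concerned is at chr2R:12880284, within the gene, and not the canonical one at 12877004. The replicate summits were spread over 189 bp, 138, 224 and 327 bp upstream, and the peaks of replicate 1 (12880069 to 12880278) and replicate 3 (12879887 to 12880009) did not overlap. A start site of Nmda1 lay 84 bp from the replicate 1 summit.

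ArgRS had summits in replicates 1 and 3, at signals of 139 and 115 and ranks of 8163 and 7183, and none in replicate 2 or the pooled list. Among the strongest 10239 peaks, 257 of replicate 1, 250 of replicate 2 and 152 of replicate 3 were overlapped by no pooled peak.

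LysRS, LeuRS-m and HisRS had pooled peaks too weak for the IDR list. LysRS had a pooled signal of 192 and summits in every replicate, at 86.8, 53.7 and 36.1, and LeuRS-m had 235, with 76.4, 68.5 and 69.2. The HisRS signal of 74.9 was near the bottom of the pooled list, at rank 26525 with a −log10 q-value of 0.366. Among the replicates HisRS had a summit in replicate 2 alone, at 47.9. TrpRS-m had a summit in replicate 2 only, at 55.9.

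No summit lay within 500 bp of CysRS, GlnRS, LeuRS, TrpRS, TyrRS or ValRS in any replicate or in the pooled list. The same held for AlaRS-m, AsnRS-m, AspRS-m, GluRS-m, IleRS-m, MetRS-m, PheRS-m, SerRS-m, TyrRS-m and ValRS-m. In the IDR list the farthest summit inside the 500 bp limit was that of GlyRS at 221 bp, and the nearest outside it were 849 bp downstream of HisRS, in its own 5′ untranslated region, with signal 318, and 903 bp upstream of LeuRS-m, in an intron of Dhc64C, the dynein heavy chain gene, with signal 2805. For 19 of the 22 unoccupied genes the nearest IDR summit was more than 5000 bp away.

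Short sequences known from Drosophila promoters were counted from 250 bases before to 50 after the canonical start site, on both strands. CAGCTG, the core of promoter motif 5, was in 16 of the 33 synthetase promoters (48.5%) and in 17.9% of all protein-coding promoters. It was in 9 cytosolic and 7 mitochondrial promoters, and in 5 of 11 occupied and 11 of 22 unoccupied genes. Of its 20 matches in synthetase promoters 14 began within 50 bp of the start site, beside 1381 of 2825 matches in all protein-coding promoters. None was within 50 bases of a synthetase summit, and 2.27% of all IDR windows held it. TATCGATA, the DNA replication-related element (DRE), was in 5 synthetase promoters (15.2%, beside 8.95% of all), those of AlaRS, ArgRS, IleRS, PheRS-m and TrpRS.

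The 100 bases before the start site show these matches in 4 genes, chosen as examples with no annotated 5′ untranslated region in the window, of which IleRS was occupied and ArgRS, TyrRS and TrpRS-m were not. Capitals mark CAGCTG and TATCGATA. The positions are chr3L:22288565-22288664 (plus strand) for IleRS, chrX:15844146-15844245 (minus) for ArgRS, chr3L:16419303-16419402 (minus) for TyrRS and chr3L:17849627-17849726 (plus) for TrpRS-m.
IleRS: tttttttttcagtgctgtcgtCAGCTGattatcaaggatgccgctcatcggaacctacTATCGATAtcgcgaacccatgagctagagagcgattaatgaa
ArgRS: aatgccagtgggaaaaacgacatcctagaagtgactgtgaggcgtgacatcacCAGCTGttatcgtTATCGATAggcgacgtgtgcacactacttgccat
TyrRS: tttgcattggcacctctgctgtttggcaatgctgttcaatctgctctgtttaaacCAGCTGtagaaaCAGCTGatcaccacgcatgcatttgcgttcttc
TrpRS-m: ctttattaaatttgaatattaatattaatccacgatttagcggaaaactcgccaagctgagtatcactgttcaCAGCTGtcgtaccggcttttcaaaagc

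At IleRS both sequences lay between the summit, 187 bp upstream, and the start site, with CAGCTG beginning at -79 bp and TATCGATA at -42 bp. ArgRS had them at -47 and -34 bp. TyrRS had CAGCTG at -45 and -33 bp. TATAAA was in 18 of the 33 promoters (54.5%, beside 45.3% of all) and in 6 of the 11 summit windows, those of AlaRS, AsnRS, CysRS-m, ProRS-m, SerRS and ThrRS, beside 25.1% of all IDR windows. GGTCACACT, core promoter motif 1, was in 3 promoters (9.09%, beside 5.87%). CACGTG, an E-box sequence, was in 2 (6.06%, beside 4.29%), GAGAG in 6 (18.2%, beside 30.3%) and the run of 8 T in 10 (30.3%, beside 16.0%). TGATGNAAT, an element known in mammals for the amino acid response, was in 0 of 33, beside 1.24% of all promoters. The A or T share was high at most of these summits, and its part in the counts of TATAAA and the T run was not tested.

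Other genes of tRNA charging and use were counted in 5 lists, with 59 of 63 symbols matched. Of 10 partners and relatives of the synthetases 1 was occupied, beside 22.9% of all protein-coding genes. It was alpha-PheRS, at an IDR signal of 303 in a peak that the strongest peaks of 2 replicates overlapped. The scaffold genes AIMP1 and AIMP2 were not occupied. Elongation factors bring charged tRNA to the ribosome and move it along. Their genes were occupied in 4 of 8 cases, beside 22.9% of all protein-coding genes. No set test was made on these short lists. The 4 were eEF1gamma (1076), eEF5 (650), eEF2 (575) and eEF1alpha1 (443), with eEF1alpha2 and eEF1beta among the others. All 3 replicates had one of their strongest 10239 peaks over each of the 4 sites.

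Mitochondrial translation factors were occupied in 2 of 8 cases (25.0%), near the 22.9% of all protein-coding genes. They were the initiation factor gene mIF2 (583) and the elongation factor gene mEFTu1 (374), while mEFG1 and mEFTs had no IDR site. Genes of amino acid and stress signalling were occupied in 5 of 9 cases (55.6%, beside 22.9%). The strongest was crc (1384), the fly counterpart of ATF4, a transcription factor known in mammals to act on synthetase genes when amino acids are short. It was followed by PEK (300), a stress kinase, eIF2beta (298), PPP1R15 (294) and Thor (263). The PPP1R15 and Thor peaks were each overlapped by the strongest 10239 peaks of 1 replicate, although all 3 whole replicate lists had a promoter summit at both genes (signals of 54.2, 91.1 and 72.8 at Thor). No IDR site was found at eIF2alpha or eIF2gamma.

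Genes that process and modify tRNA were occupied in 6 of 24 cases (25.0%), near the 22.9% of all protein-coding genes. Elp6 (4514) and Elp5 (3768), for subunits of Elongator, which modifies the wobble base of tRNAs, had signals above that of any synthetase gene in the IDR list. Their replicate signals were 1780, 1221 and 1533, and 1471, 1127 and 1187. Rtca (1864), for an RNA phosphate cyclase, and RNaseZ (663), for the enzyme that trims the 3′ end of tRNAs, followed, and Elp2 and Elp3 were not occupied. Over the 5 lists 18 of 59 genes (30.5%) were occupied, beside 22.9% of all protein-coding genes.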

How the data were processed

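ChIP-seq of GFP-tagged CG8159 in whole pupae was analysed from peak lists on dm6, which the authors deposited for 3 replicates, the replicates pooled, and the IDR selection, each made with the same control alignment, per the deposited file lists. No aligner, peak caller or read filter was given in the sources used here. Without read numbers the depth is unknown. The deposited signal is the caller's own value per peak. It was used to rank and describe peaks within a list, never to compare levels across lists. The −log10 q-values that the authors deposited did not enter the ranking.

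Genes and start sites came from Ensembl release 115 and sequence from the release 6 reference, into whose arm lengths all peaks fell. Summits were assigned to all start sites within 500 bp with Python 3.11.15, and the assignment was checked on 200 planted summits with 0 errors. Wilson intervals (95%) used scipy 1.17.1. Replicate values are mean ± SD over 3 replicates of 1 group. The motif windows spanned 301 bases. Every synthetase gene is named. Of each other list, the 4 occupied genes of highest signal and the first 2 unoccupied in alphabetical order are named, and the fifth occupied signalling gene was added after its value was seen. The members and lists were chosen with earlier results of these data known, and no set test was made. Alternatives covered the promoter distance, the peak list, the start site used, nearest-gene counting and each replicate left out.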

Additional observations from a re-analysis of the deposited data

How the results depend on the processing

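Each replicate was left out in turn by taking IDR peaks that the strongest peaks of both others overlapped. This gave 11 synthetase genes, 8 cytosolic and 3 mitochondrial, each time, with a share of all genes between 19.2% and 19.6%. The 11 were fixed in advance, since strongest peaks of all 3 replicates overlapped the IDR peak at each gene. The IDR list was itself made from all 3 replicates, so a replicate left out still helped to choose the peaks. A promoter distance of 250 bp also gave 11 (beside 17.7% of all protein-coding genes), as did canonical start sites alone (20.0%), and 1000 bp gave 13 (27.4%). The count at 250 bp was fixed too, as the farthest of the 11 summits lay 221 bp from its start site. IDR peaks under a strong peak of every replicate gave 11, at 1 bp (18.3% of all genes) or over 50% of their length (17.4%). The count at 1 bp follows from the same overlap. The IDR list cut to its 5119 strongest peaks gave 7 genes in all and 1 mitochondrial gene, beside 13.5% of all genes. Counting a summit for the nearest gene only gave 7 and 1, beside 18.0%. Where a strongest summit nearer to another gene was not counted, 6 genes were left, 5 cytosolic and 1 mitochondrial, beside 17.6% of all genes. The mitochondrial minus cytosolic share then went from -24.4 to -21.1 percentage points. That difference was -28.9 in the pooled list. In comparisons added after seeing the data it was -34.4, -27.8 and -34.4 in the whole lists of replicates 1, 2 and 3, where replicate 2 had 5 mitochondrial genes, and -35.6, -30.0 and -35.6 in their strongest peaks. The mitochondrial share was lower in each of these settings. Those whose counts were fixed in advance could not have come out otherwise. Fewer peaks, or fewer genes per summit, are built into the settings that lowered the counts; for the other shifts the cause was not tested. The median summit position stayed between -144 and -126 bp. No paired analysis was possible because the samples form 1 group. Counts of 18 and 15 genes and the unknown read depth limit the comparison.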

Other observations

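Around the unoccupied synthetase genes the nearest IDR summits mostly lay within 500 bp of start sites of other genes. Those named here were singled out after their values were seen. The strongest of them, of signal 9050 at rank 34, lay 6599 bp upstream of AlaRS-m and 104 bp from a start site of Tcs5. Others were at CG11857 near GlnRS (signal 2548), GNBP3 near ValRS-m (2692), Reg-5 near TyrRS-m (2032), Atg4b near SerRS-m (1903) and Pgm1, for phosphoglucomutase, near IleRS-m (1670). TyrRS and GluRS-m, which follow each other on 3L, shared the summit at fax (418) as their nearest. The median distance was 7202 bp for the 10 unoccupied cytosolic genes and 9169 bp for the 12 mitochondrial ones.

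Several related genes had strong replicate peaks with no pooled peak, as AspRS did. Elp4 had signals of 475 and 387 in replicates 1 and 3, and GatA, a subunit gene of the mitochondrial glutamyl-tRNA amidotransferase, had 236 and 287 in replicates 1 and 2. Of the 257 strongest replicate 1 peaks that no pooled peak overlapped, 20 were overlapped by such peaks of both other replicates.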
